A study of Homo sapiens with 8 samples.

Results

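Ribosome biogenesis genes encode the proteins that transcribe, modify and cut ribosomal RNA (rRNA) in the nucleolus and assemble it with ribosomal proteins into the 2 ribosomal subunits. The 49 genes described here were chosen by symbol as established nucleolar and ribosome assembly factors, with earlier results of these data known, and each was represented by its probe of highest mean over the 8 arrays. Of the 49, 45 had a named probe on the array (69 probes in all), and 44 of these were bright enough to be tested, among 12384 tested genes of 20044 named on the array. NPM1, the nucleolar chaperone nucleophosmin, had only a probe at background level and was not tested. WDR43, EBNA1BP2, GNL3 and DDX18 had no probe named for them alone.

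The study made stable knockdown cells with short hairpin RNA against SMARCB1, which belongs to the core of SWI/SNF chromatin remodellers, in 2 established lines of human liver cancer, SK-Hep1 and Huh7. There were 2 arrays of each group: SK-Hep1 SMARCB1 knockdown cells (titled 11 and 12), SK-Hep1 control cells (1 and 2, titled as a control hairpin), Huh7 SMARCB1 knockdown cells (3 and 4, both also titled 11) and Huh7 control cells (1 and 2, titled with GFP). All cells were under puromycin at 1.25 µg/mL per the labels' protocols, the control constructs may differ between the lines, and no label says whether 11 and 12 are different hairpins. The number 11 stands in the knockdown titles of both lines and 12 in those of SK-Hep1 only. Both arrays of a group carry the same replicate number in the sample descriptions and no source describes separate cultures, so p-values measure only the spread between arrays, which may be technical. The number of arrays limits the precision.

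Values are log2 intensities as the authors deposited them, and differences are knockdown minus control within a line, with n = 2 arrays per group and ± giving limma's standard error. A gene is said to have risen or fallen where limma's adjusted p (Benjamini-Hochberg over the 12384 tested genes) was under 0.05. SMARCB1 itself read 9.30 and 9.67 in SK-Hep1 knockdown cells, against 10.68 and 10.61 in SK-Hep1 controls, and 9.22 and 9.27 in Huh7 knockdown cells, against 10.84 and 10.94 in Huh7 controls. Knockdown cells thus kept 44.7% of the control intensity in SK-Hep1 and 32.0% in Huh7. Gene by gene, SK-Hep1 and Huh7 means (4 arrays each) differed with an SD of 0.0291, so the deposited values hold almost no difference in level between the lines, and no level is compared between them here. All 11 hepatocyte markers were above background, in SK-Hep1 as in Huh7, so the labelled identity of each line could not be checked from these values. Of the endothelial markers, 2 of 8 were above background (PECAM1 and ESAM), with VWF, CDH5 and KDR below it. Of the immune markers 3 of 6 were above it (CD14, LYZ and CD68), with PTPRC below it. All 7 fibroblast markers were above background. Because whole cultures were measured, fewer cells of a kind and less RNA per cell cannot be told apart.

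In Huh7, knockdown cells had higher levels of 18 of the 44 tested ribosome biogenesis genes (40.9%), and 0 fell. Over all tested genes, 39.1% were called in Huh7, with 19.5% higher and 19.6% lower, so the share of members that rose was above the background share and the share that fell was below it. At an unadjusted p under 0.05, 3 members were lower (DDX10, NOB1 and RRP1B), but all tested genes were not counted at that threshold. Between 0 and 6 members passed as lower across the other settings of the same limma fit that kept all 8 arrays. The 6 were found with array weights, where 25.4% of all tested genes were lower. The median difference of the members was 0.20, against 0.00 for all tested genes. The differences ran from -0.21 for NOB1 (86.2% of the control intensity) to 0.49 for RRS1 (140%). The median over the members was 0.20 and 0.17 above the control mean on the 2 knockdown arrays, so both arrays showed the shift. Without Huh7 control 1 or 2, or knockdown 3 or 4, the count of members that rose was 11, 10, 11 and 11, with 0 falling in each case. The share of all tested genes that rose in those fits was also lower, at 11.4%, 11.9%, 12.5% and 12.2%. NOP58, IMP3, RRP12, PPAN, RRS1, NIP7, NOP2 and DDX56, 8 of the 18, passed in all 16 other settings tried.

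In SK-Hep1 5 members passed the test. IMP3 rose (2.27% of the 44 members) and 4 members fell (9.09%): PPAN, NAT10, DDX10 and POLR1C. Over all tested genes 16.9% were called in SK-Hep1, 8.33% higher and 8.54% lower, so the share of members that fell was near the background share. The median difference of the members was -0.06, against -0.01 for all tested genes. Both knockdown arrays lay above both controls for 8 members and below for 19 (18.2% and 43.2%), where all tested genes gave 26.0% and 28.7%. In Huh7 the same count was 27 above and 11 below (61.4% and 25.0%), where all tested genes gave 37.5% and 37.3%. The count of members that fell was 0 without SK-Hep1 control 1, where 3.70% of all tested genes fell. It was 2 without SK-Hep1 control 2, SK-Hep1 knockdown 11, Huh7 control 1 or Huh7 control 2, where 4.31%, 10.3%, 6.40% and 6.40% of all tested genes fell (the fit has 1 estimate of spread per gene for both lines). The rise of IMP3 passed without SK-Hep1 knockdown 12, and in no fit that left out another array.

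**Figure D1:**
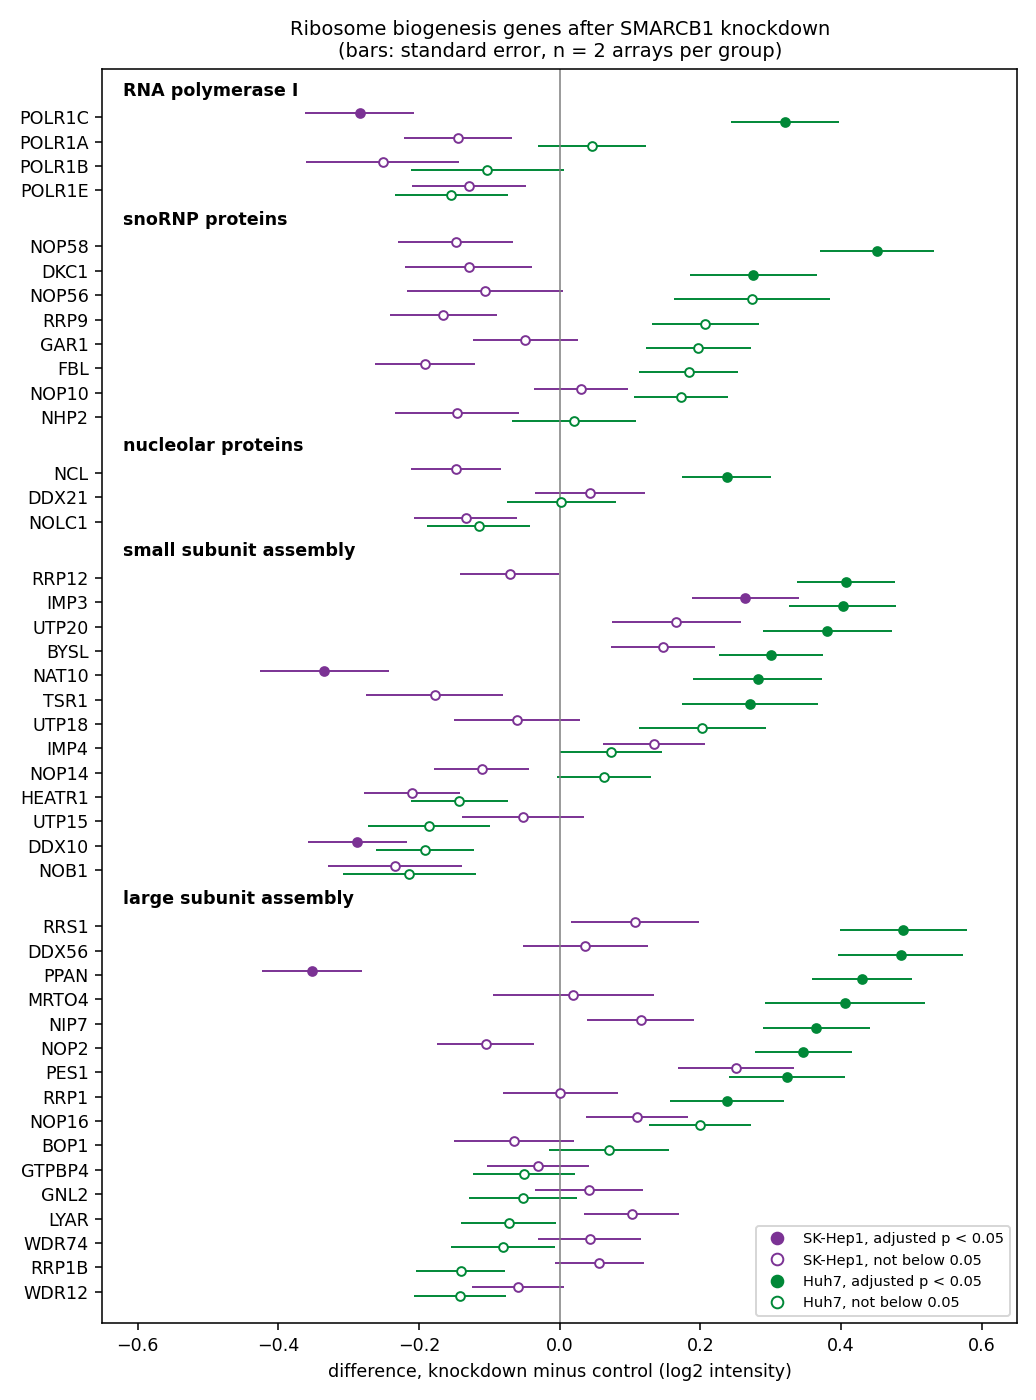
Difference of each tested member, knockdown minus control, on the log2 scale, for SK-Hep1 (purple) and Huh7 (green), grouped by role and ordered by the Huh7 difference. Points are differences of means of 2 arrays, bars are limma's standard error, and filled points have an adjusted p under 0.05. All 18 filled green points lie right of 0, while 1 of the 5 filled purple points does.

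RNA polymerase I transcribes the long rRNA precursor. Its 4 listed subunits were all below 0 in SK-Hep1 (differences from -0.28 to -0.13) and split 2 above and 2 below 0 in Huh7. POLR1C, a subunit that RNA polymerase I shares with RNA polymerase III, read 11.39 and 11.42 in SK-Hep1 knockdown cells, against 11.78 and 11.60 in SK-Hep1 controls. In Huh7 it read 11.65 and 11.71 in knockdown cells, against 11.33 and 11.39 in controls. The groups did not overlap in either line, and the gene fell in SK-Hep1 (-0.28 ± 0.08, adjusted p = 0.0307) and rose in Huh7 (0.32 ± 0.08, adjusted p = 0.00854). Its dimmer probe gave -0.24 in SK-Hep1 and 0.33 in Huh7. The other subunits did not pass the test in either line. POLR1A and POLR1B, which form the catalytic core, differed by -0.14 and -0.25 in SK-Hep1 and by 0.05 and -0.10 in Huh7. POLR1E, a subunit particular to RNA polymerase I, differed by -0.13 in SK-Hep1 and -0.15 in Huh7, with its dimmer probe at -0.30 and -0.25. In SK-Hep1 the POLR1C call held in 1 of the 8 fits that left out an array, the one without SK-Hep1 control 2. The difference was -0.19 without SK-Hep1 control 1 (adjusted p = 0.179), -0.27 without knockdown 11 (adjusted p = 0.0689) and -0.30 without knockdown 12 (adjusted p = 0.0558). It stayed at -0.28 without either Huh7 control (adjusted p = 0.0547) or either Huh7 knockdown array (adjusted p = 0.0502), with each line fitted alone (adjusted p = 0.0976) and with array weights (adjusted p = 0.0825). POLR1C did not pass in Huh7 without control 1 (0.29, adjusted p = 0.0713) or Huh7 knockdown 4 (0.29, adjusted p = 0.0666).

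Small nucleolar ribonucleoproteins (snoRNPs) guide the chemical modification of rRNA. All 8 listed members of this class had a positive difference in Huh7 and 7 of 8 a negative one in SK-Hep1. Only NOP58 and DKC1 passed the test, in Huh7. SNU13, a core protein outside the member list, went the other way (-0.03 in Huh7 and 0.35 in SK-Hep1). NOP58, a core protein of the box C/D particles that direct ribose methylation, read 11.67 and 11.53 in Huh7 knockdown cells, against 11.17 and 11.12 in Huh7 controls. In SK-Hep1 it read 11.40 and 11.23 in knockdown cells, against 11.50 and 11.43 in controls. The Huh7 groups lay well apart and the gene rose there (0.45 ± 0.08, adjusted p = 0.00182), while the SK-Hep1 difference of -0.15 ± 0.08 did not pass the test (adjusted p = 0.238). DKC1, the pseudouridine synthase of the box H/ACA particles and also a telomerase component, read 13.05 and 12.90 in Huh7 knockdown cells, against 12.67 and 12.73 in Huh7 controls (0.28 ± 0.09, adjusted p = 0.0344). It was -0.13 in SK-Hep1, where its groups overlapped.

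FBL, the methyltransferase of the box C/D particles, read 12.93 and 12.85 in Huh7 knockdown cells, against 12.72 and 12.69 in controls, and 12.74 and 12.64 in SK-Hep1 knockdown cells, against 12.84 and 12.93 in controls. Neither difference passed the test (0.18, adjusted p = 0.0629 in Huh7, and -0.19, adjusted p = 0.0892 in SK-Hep1). RRP9, which binds the U3 snoRNA needed for the first cuts of the precursor, read 8.25 and 8.39 in Huh7 knockdown cells, against 8.10 and 8.12 in controls. In SK-Hep1 it read 8.09 and 8.21 in knockdown cells, against 8.30 and 8.33 in controls. Its groups were apart in both lines in opposite directions, and neither passed (0.21, adjusted p = 0.0527, and -0.17, adjusted p = 0.160). NOP56, the partner of NOP58, differed by 0.27 in Huh7 on its brightest probe (adjusted p = 0.0733) and by 0.37 and 0.39 on its dimmer probes. The H/ACA proteins GAR1, NOP10 and NHP2 differed by 0.20, 0.17 and 0.02 in Huh7. The 4 probes of NHP2 lay between -0.09 and 0.02 there.

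Of the abundant nucleolar proteins, nucleolin (NCL), an RNA-binding protein of the nucleolus, rose in Huh7. It read 13.39 and 13.43 in Huh7 knockdown cells, against 13.16 and 13.18 in Huh7 controls (0.24 ± 0.06, adjusted p = 0.0143), and 13.19 and 13.23 in SK-Hep1 knockdown cells, against 13.37 and 13.35 in SK-Hep1 controls (-0.15 ± 0.06, adjusted p = 0.140). Both pairs of groups were free of overlap, and a dimmer NCL probe gave 0.37 in Huh7 and -0.43 in SK-Hep1. NOLC1, a chaperone of snoRNPs, differed by -0.12 in Huh7 and -0.13 in SK-Hep1. The helicase DDX21 differed by 0.00 in Huh7, with a 95% interval of -0.17 to 0.17, and by 0.04 in SK-Hep1.

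The small subunit is built from the processome, a large particle on the U3 snoRNA, and 13 of its listed factors were tested. In Huh7, 6 of them rose: RRP12, IMP3, UTP20, BYSL, NAT10 and TSR1. RRP12, which takes part in export of the maturing subunits, read 10.21 and 10.21 in Huh7 knockdown cells, against 9.75 and 9.85 in Huh7 controls (0.41 ± 0.07, adjusted p = 0.00133). In SK-Hep1 it read 9.94 and 10.03 in knockdown cells, against 10.04 and 10.08 in controls (-0.07 ± 0.07, adjusted p = 0.516). UTP20, a processome scaffold, read 8.31 and 8.51 in Huh7 knockdown cells, against 8.04 and 8.02 in Huh7 controls (0.38 ± 0.09, adjusted p = 0.00846). The knockdown arrays of both genes lay above both controls in Huh7, and UTP20's were also above in SK-Hep1 without passing the test (0.17, adjusted p = 0.240). Without control 2 or knockdown 4 UTP20 did not pass in Huh7 (adjusted p = 0.0551 and 0.0841). BYSL, which binds the maturing small subunit, rose by 0.30 in Huh7 (adjusted p = 0.00911) and differed by 0.15 in SK-Hep1.

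IMP3, a U3-binding processome protein, was the 1 member that rose in both lines. It read 13.00 and 12.85 in SK-Hep1 knockdown cells, against 12.60 and 12.72 in SK-Hep1 controls, and 13.01 and 13.00 in Huh7 knockdown cells, against 12.58 and 12.63 in Huh7 controls. The SK-Hep1 difference was 0.26 ± 0.08 (adjusted p = 0.0397), and the Huh7 difference was 0.40 ± 0.08 (adjusted p = 0.00239). It was 0.20 in SK-Hep1 without control 1 (adjusted p = 0.197) and 0.19 without knockdown 11 (adjusted p = 0.127). Its partner IMP4 did not pass the test in either line, at 0.13 in SK-Hep1 and 0.07 in Huh7.

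NAT10, the acetyltransferase of small subunit rRNA, moved in opposite directions in the 2 lines. It read 11.31 and 11.02 in SK-Hep1 knockdown cells, against 11.50 and 11.50 in SK-Hep1 controls, and 11.51 and 11.41 in Huh7 knockdown cells, against 11.20 and 11.15 in Huh7 controls. It fell in SK-Hep1 (-0.33 ± 0.09, adjusted p = 0.0318), where the 2 knockdown arrays differed from each other more than the controls did, and rose in Huh7 (0.28 ± 0.09, adjusted p = 0.0335). Without SK-Hep1 knockdown 12 the NAT10 difference was -0.19 (adjusted p = 0.129), while it was -0.34 without SK-Hep1 control 1 (adjusted p = 0.125) and -0.33 without control 2 (adjusted p = 0.115). It stayed at -0.33, again without passing, when either Huh7 control was left out (adjusted p = 0.0552), with each line fitted alone (adjusted p = 0.0827) and with array weights (adjusted p = 0.0603). DDX10, a helicase of the processome, read 10.91 and 11.02 in SK-Hep1 knockdown cells, against 11.27 and 11.24 in controls, and 10.95 and 11.04 in Huh7 knockdown cells, against 11.18 and 11.20 in controls. DDX10 fell in SK-Hep1 (-0.29 ± 0.07, adjusted p = 0.0200) and was also below its controls in Huh7 without passing the test (-0.19 ± 0.07, adjusted p = 0.0526). In SK-Hep1 its difference was -0.27, -0.30 and -0.23 without control 1, control 2 or knockdown 11 and did not pass (adjusted p = 0.0943, 0.0648 and 0.0591), nor did it with each line fitted alone or with array weights (-0.29 in both, adjusted p = 0.0785 and 0.0565). NOB1, the endonuclease that makes the final cut of small subunit rRNA, and HEATR1 and UTP15, processome proteins linked to rRNA transcription, differed by -0.21, -0.14 and -0.19 in Huh7 and by -0.23, -0.21 and -0.05 in SK-Hep1, and none of the 3 passed. TSR1, a late small subunit factor, rose in Huh7 on its brightest probe (0.27, adjusted p = 0.0480), but its dimmer probe gave -0.06. NOP14 differed by 0.06 in Huh7 on its brightest probe and by -0.13 on the other.

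Large subunit assembly held the members of largest difference. Of 16 tested factors, 8 rose in Huh7 and 0 fell, and in SK-Hep1 PPAN fell and 11 of the 16 lay above 0 without passing. RRS1, which brings the smallest rRNA of the large subunit into the particle, read 10.85 and 10.79 in Huh7 knockdown cells, against 10.34 and 10.32 in Huh7 controls. That is 140% of the control intensity, the largest ratio among the members (0.49 ± 0.09, adjusted p = 0.00209). In SK-Hep1 it read 10.77 and 10.51 in knockdown cells, against 10.59 and 10.48 in controls, with overlap. DDX56, a nucleolar helicase, read 11.52 and 11.62 in Huh7 knockdown cells, against 11.09 and 11.07 in Huh7 controls (0.48 ± 0.09, adjusted p = 0.00193). In SK-Hep1 it read 11.48 and 11.23 in knockdown cells, against 11.34 and 11.30 in controls, again with overlap.

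PPAN, whose yeast counterpart acts early in large subunit assembly, had the largest difference between the lines among the members. It read 8.69 and 8.57 in SK-Hep1 knockdown cells, against 9.003 and 8.965 in SK-Hep1 controls. In Huh7 it read 8.97 and 9.06 in knockdown cells, against 8.58 and 8.59 in controls. The groups were far apart in both lines, and PPAN fell in SK-Hep1 (-0.35 ± 0.07, adjusted p = 0.00837) and rose in Huh7 (0.43 ± 0.07, adjusted p = 0.00107). Without SK-Hep1 control 1 its SK-Hep1 difference was -0.33 and no longer passed (adjusted p = 0.0574), and it passed in the other 7 fits that left out an array and in all 8 other settings.

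MRTO4, which holds the place of a stalk protein on the immature large subunit, read 10.16 and 9.95 in Huh7 knockdown cells, against 9.52 and 9.78 in Huh7 controls (0.41 ± 0.11, adjusted p = 0.0174). Its arrays spread more widely than those of NIP7 and NOP2, and the call was lost without Huh7 control 1 or knockdown 3 (adjusted p = 0.154 and 0.132). NIP7, which acts on the large subunit precursor, read 11.20 and 11.23 in Huh7 knockdown cells, against 10.84 and 10.86 in controls (0.36 ± 0.08, adjusted p = 0.00404). NOP2, the methyltransferase of large subunit rRNA, read 12.25 and 12.27 in Huh7 knockdown cells, against 11.93 and 11.90 in controls (0.35 ± 0.07, adjusted p = 0.00319). For NIP7 and NOP2 the 2 arrays of each Huh7 group lay close together and the groups far apart. In SK-Hep1 NOP2 read 12.09 and 12.01 in knockdown cells, against 12.11 and 12.21 in controls (-0.11, adjusted p = 0.321). Both dimmer NOP2 probes above background gave a difference of the same sign in each line, 0.30 and 0.31 in Huh7 and -0.24 and -0.22 in SK-Hep1.

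PES1, BOP1 and WDR12 form one complex needed for maturation of large subunit rRNA, and of the 3 partners PES1 alone passed the test. PES1 read 9.63 and 9.67 in Huh7 knockdown cells, against 9.43 and 9.22 in Huh7 controls, and rose (0.32 ± 0.08, adjusted p = 0.0109), but did not pass without control 2 (0.22, adjusted p = 0.119) or knockdown 4 (0.31, adjusted p = 0.0679). In SK-Hep1 its difference of 0.25 did not pass (adjusted p = 0.0622). BOP1 differed by 0.07 in Huh7 and -0.07 in SK-Hep1, and WDR12 by -0.14 and -0.06, and neither passed in either line. RRP1, a nucleolar protein of the large subunit pathway, rose in Huh7 (0.24, adjusted p = 0.0406), while its paralog RRP1B differed by -0.14 (adjusted p = 0.102). NOP16 missed the threshold in Huh7 (0.20, adjusted p = 0.0514), with 0.01 on its dimmer probe. The nucleolar GTPases GTPBP4 and GNL2 each differed by -0.05 in Huh7, LYAR by -0.07 and WDR74 by -0.08.

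**Figure D2:**
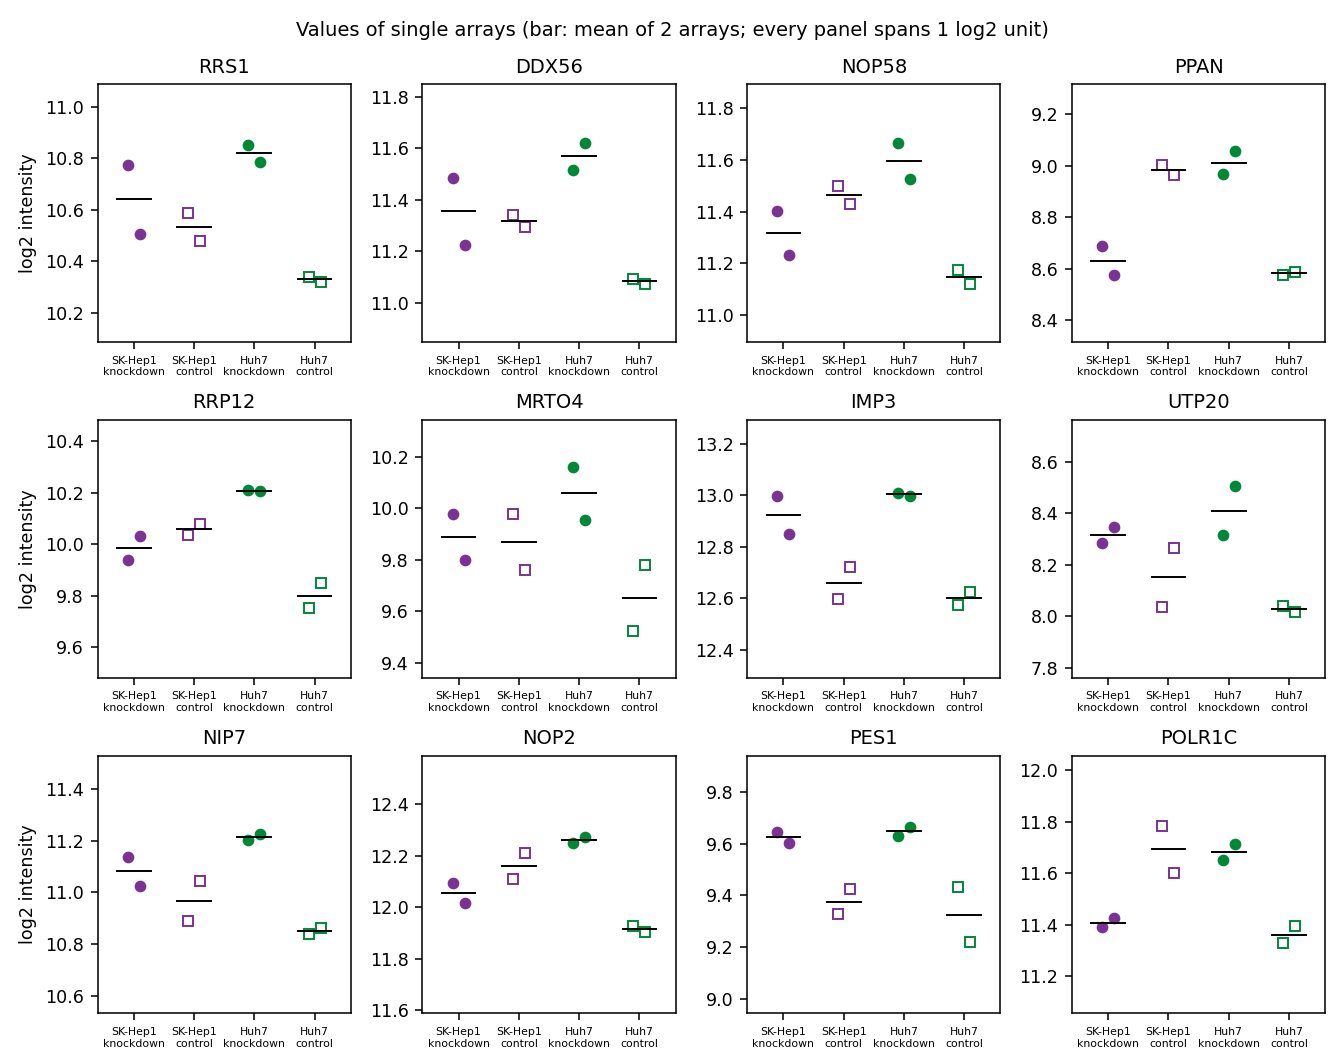
Log2 intensity on each of the 8 arrays for the 12 members of largest difference past the threshold in Huh7. Filled circles are knockdown arrays, open squares are control arrays, bars are means of 2 arrays, and every panel spans 1 log2 unit. In each panel both Huh7 knockdown arrays lie above both Huh7 controls, while the SK-Hep1 groups lie in either order or overlap.

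The difference between the lines was tested directly, by subtracting the Huh7 difference of each gene from its SK-Hep1 difference. It was below 0 and past the threshold for 13 of the 44 members (29.5%) and above 0 and past it for 0. At an unadjusted p under 0.05 the counts were 17 below 0 and 0 above, but all tested genes were not counted at that threshold. Over all tested genes 31.4% were called in this comparison at an adjusted p under 0.05, 15.3% above 0 and 16.1% below. The values were -0.78 ± 0.10 for PPAN (adjusted p = 0.000396), -0.60 ± 0.11 for POLR1C (adjusted p = 0.00265), -0.60 ± 0.12 for NOP58 (adjusted p = 0.00367) and -0.62 ± 0.13 for NAT10 (adjusted p = 0.00582). RRP12, NOP2 and NCL followed with -0.48, -0.45 and -0.38. DDX56, TSR1, DKC1, RRS1, FBL and RRP9 lay between -0.45 and -0.37. All 13 were above 0 in Huh7, and 11 of them were below 0 in SK-Hep1, DDX56 and RRS1 being the others. Choosing genes by a value below 0 in this test favours those signs, so they are no separate result. FBL and RRP9 passed this test although they passed in neither line alone. The count of 13 was 8 without SK-Hep1 control 1 and 7 without Huh7 control 1 or Huh7 control 2, where 12.3%, 10.4% and 10.2% of all tested genes were called below 0.

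Across the 44 members, 1 rose in both lines, 3 fell in SK-Hep1 and rose in Huh7 (PPAN, NAT10 and POLR1C), 14 were called in Huh7 with no call in SK-Hep1, DDX10 was called in SK-Hep1 with no call in Huh7, and 25 were called in neither. The sign was the same in both lines for 22 members. As a description, Pearson's r between the SK-Hep1 and Huh7 differences was 0.21 over the 44 members (Spearman's rho 0.20) and 0.03 over all tested genes. The genes come from the same arrays and are not independent.

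**Figure D3:**
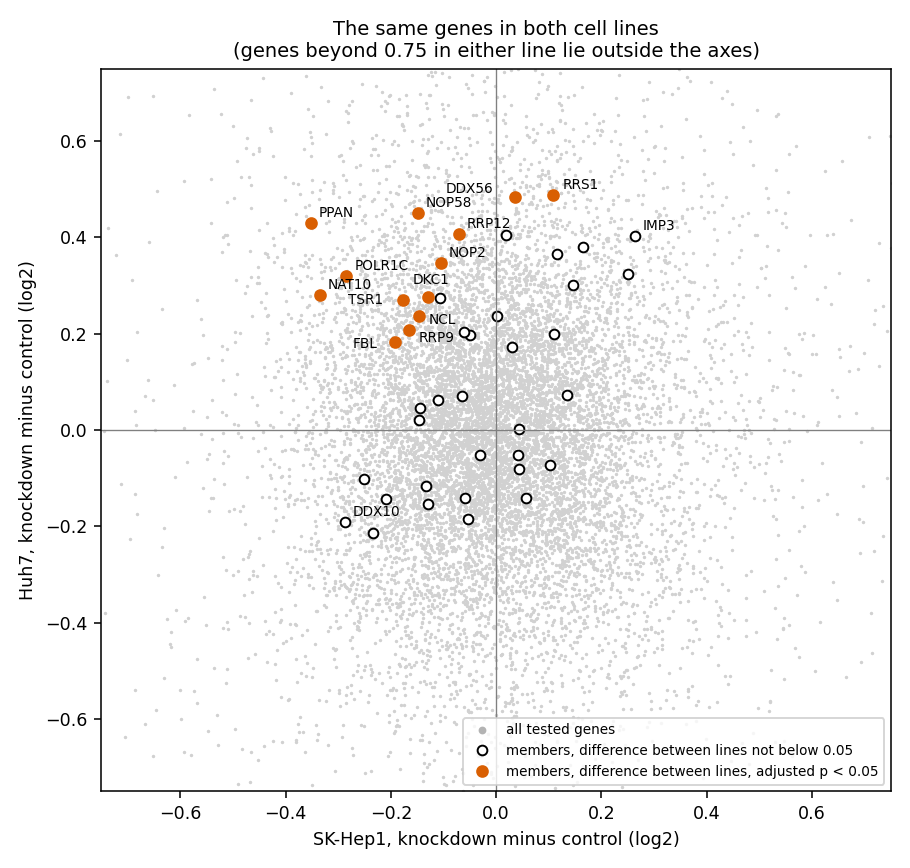
Difference in SK-Hep1 (horizontal) against difference in Huh7 (vertical), both knockdown minus control on the log2 scale. Grey points are all tested genes within the axes, circles are the 44 tested members, and orange circles are the 13 members whose difference between the lines had an adjusted p under 0.05. The orange circles lie in the upper part, 11 of them left of 0, a place that their choice by this difference favours.

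**Figure D4:**
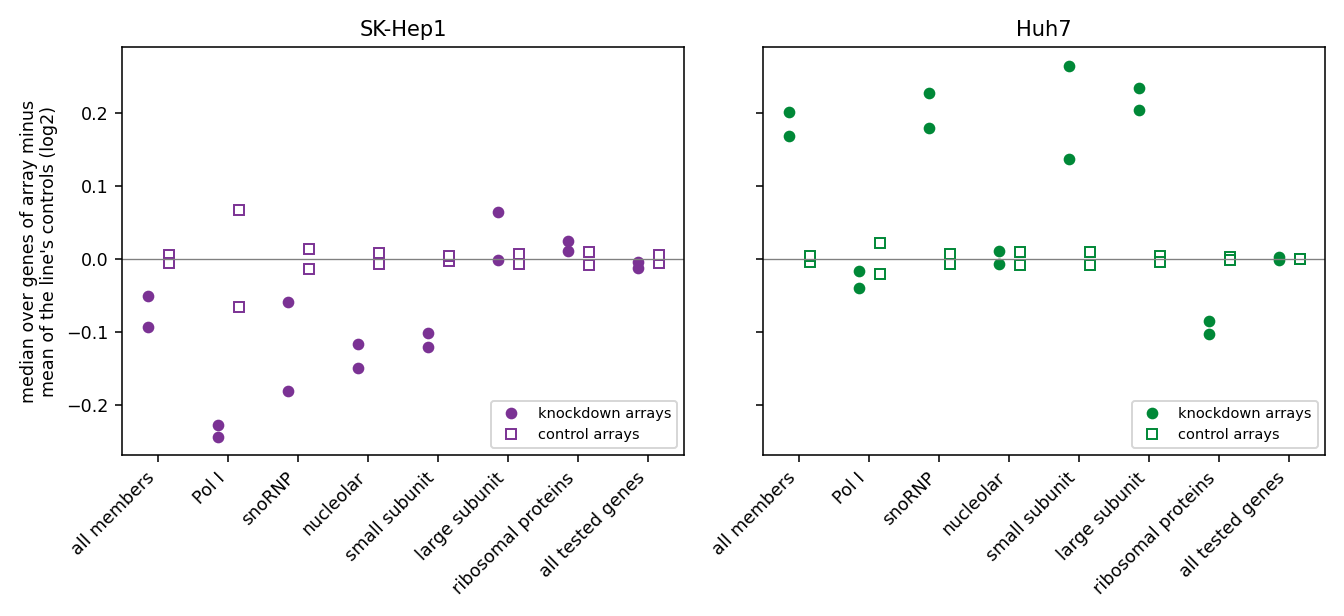
Median over genes of each array's log2 value minus the mean of its line's controls, for SK-Hep1 (left) and Huh7 (right). Filled circles are knockdown arrays and open squares control arrays, 2 of each per line. For all members the Huh7 knockdown arrays lie at 0.20 and 0.17 and the SK-Hep1 knockdown arrays at -0.05 and -0.09, while all tested genes lie near 0.

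Other genes of the pathway were described from lists of known factors. For comparison with these and the later lists, 19.5% of all tested genes rose and 19.6% fell in Huh7. In SK-Hep1 the shares were 8.33% and 8.54%. Of 43 other small subunit factors, 19 rose and 4 fell in Huh7, and 1 rose and 1 fell in SK-Hep1. The largest differences in Huh7 were those of RRP36 (0.66), DDX52 (0.62) and RCL1 (0.58), and in SK-Hep1 PNO1 rose (0.29) and RIOK1 fell (-0.26). Of 46 other large subunit factors, 18 rose and 5 fell in Huh7, with RRP15 at 0.53, PELP1 at -0.50 and URB2 at 0.50, and 0 rose and 5 fell in SK-Hep1. The median differences in Huh7 were 0.16 and 0.15 for these lists. Of 13 exosome genes, which degrade and trim rRNA precursors, 4 rose and 1 fell in Huh7, among them EXOSC6 (0.86) and EXOSC7 (-0.55), and 0 rose and 2 fell in SK-Hep1 (EXOSC8 at -0.40 and EXOSC7 at -0.30).

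Of 17 other RNA polymerase I subunits and factors, 6 rose and 3 fell in Huh7, and 1 rose and 3 fell in SK-Hep1. Some of these subunits, also among those that rose, are shared with other RNA polymerases. The subunit POLR1H fell in both lines (-0.26 in SK-Hep1 and -0.37 in Huh7), and TAF1A (-0.30) and POLR1F (-0.30) fell in SK-Hep1. POLR2L, a small subunit common to the nuclear RNA polymerases, rose in both lines, by 0.48 in SK-Hep1 and 0.81 in Huh7. UBTF, the factor that opens rRNA genes for transcription, rose in Huh7 (0.47 ± 0.10, adjusted p = 0.00419), with -0.20 in SK-Hep1 (adjusted p = 0.191), and its difference between the lines passed the test (-0.67, adjusted p = 0.00556). Of 19 RNA polymerase III genes, which serve transcription of the smallest rRNA and of transfer RNA, 8 rose and 4 fell in Huh7 and 1 rose and 1 fell in SK-Hep1. Of 12 other snoRNP genes, mostly assembly factors, none passed in Huh7. In SK-Hep1 SNU13, itself a core protein of the box C/D particles, rose (0.35). Its difference between the lines was 0.39 (adjusted p = 0.0140).

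The ribosomal proteins are the parts that the assembly factors put together. Of 68 tested, 1 rose and 11 fell in Huh7, and 7 rose and 1 fell in SK-Hep1. The share that fell in Huh7 was not above the 19.6% of all tested genes. The share that rose in SK-Hep1 was near the 8.33% of all tested genes. The median difference was -0.09 in Huh7 and 0.04 in SK-Hep1. RPL28 (-0.78), RPL37 (-0.67) and RPL13 (-0.48) had the largest differences in Huh7, and RPL29 (0.83), RPL23A (0.37) and RPS7 (0.34) in SK-Hep1. These genes have many near-identical processed copies in the genome, so single probe values are uncertain.

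MYC, the transcription factor known to drive many ribosome biogenesis genes, read 12.28 and 12.10 in SK-Hep1 knockdown cells, against 12.46 and 12.46 in SK-Hep1 controls, and 12.26 and 12.31 in Huh7 knockdown cells, against 12.29 and 12.30 in Huh7 controls. It fell in SK-Hep1 (-0.27 ± 0.07, adjusted p = 0.0338), while its Huh7 groups overlapped (-0.01 ± 0.07, adjusted p = 0.924). The difference between the lines did not pass the test (-0.26, adjusted p = 0.0895). MYCN fell in Huh7 (-0.88), as did MNT (-0.55) and MXD4 (-0.53), which are repressors of MYC target genes. In SK-Hep1 MXD3 fell (-0.61) and MXD4 rose (0.37). Of 10 tested genes of the p53 pathway, 1 rose and 0 fell in SK-Hep1, and 0 rose and 3 fell in Huh7. CDKN1A, a p53 target and cell cycle inhibitor, rose by 0.31 in SK-Hep1 and fell in Huh7 (-0.80). TP53INP1 had the largest fall of the list in Huh7 (-0.95), and most of the list was not called in either line.

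Genes of mitosis were set beside the members. Of 16 in Huh7, 7 rose and 0 fell, with a median difference of 0.17, and in SK-Hep1 0 rose and 9 fell, with a median of -0.33. Their mean log2 value was 11.60 and 11.63 in Huh7 knockdown cells, against 11.46 and 11.47 in Huh7 controls, and 11.45 and 11.34 in SK-Hep1 knockdown cells, against 11.71 and 11.67 in SK-Hep1 controls. Their part in the members' result was not tested. By brightness, the Huh7 medians of all tested genes lay between -0.01 and 0.02 in every range of mean log2 value, and those of the members between -0.08 and 0.30.

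**Figure D5:**
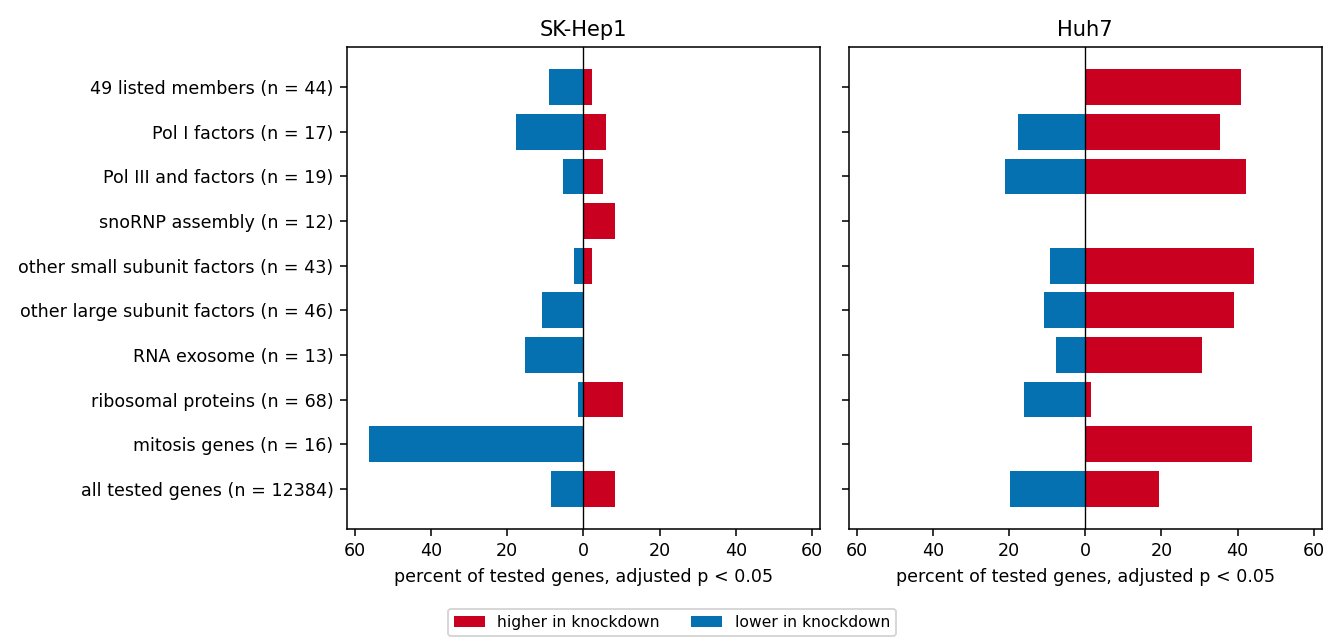
Percent of the tested genes of each list that were higher (right, red) or lower (left, blue) in knockdown cells at an adjusted p under 0.05, for SK-Hep1 and Huh7, with the number tested in brackets. In Huh7 the members show 40.9% higher and 0% lower against 19.5% and 19.6% for all tested genes. Of 68 ribosomal proteins 1 was higher and 11 were lower, and the share lower was not above that of all tested genes.

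The promoters of the members were read for short motifs in RefSeq windows of 300 bases (250 before and 50 after the gene's start, GRCh38.p14), which 41 of the 49 members had. The windows do not include POLR1E, NOP58, NOLC1, RRP12, BOP1, RRS1, DDX18 and RRP1B. The E-box CACGTG, the sequence that MYC with MAX is known to bind, stood in 19 of the 41 genes (46.3%), against 12.6% of 9787 tested genes and 10.9% of 15843 protein-coding genes with windows. The motif CCGGAAG, bound by ETS factors, stood in 16 (39.0%), against 21.6% of tested genes. CCAAT stood in 46.3%, against 43.8% of tested genes, and GGGCGG in 70.7%, against 75.7%. All motifs were searched on both strands, CACGTG reads the same on both, and a match is a description of the letters and no evidence of binding.

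Members that rose in Huh7 were found with and without an E-box. Of 16 tested members with one, 6 rose in Huh7, with a median difference of 0.20, and of 21 without one, 9 rose, with a median of 0.20. The 6 that rose are shown because they hold an E-box and rose in Huh7. Each sequence runs from 60 bases before the start to 50 after it, 5′ to 3′ on the gene's strand, with the E-box in capitals. The windows lie at chr1:19251745-19251854 (MRTO4, plus strand), chr6:41921439-41921548 (BYSL, plus), chr11:34105569-34105678 (NAT10, plus), chr12:6568242-6568351 (NOP2, minus), chr12:101280045-101280154 (UTP20, plus) and chr22:30591861-30591970 (PES1, minus).
MRTO4: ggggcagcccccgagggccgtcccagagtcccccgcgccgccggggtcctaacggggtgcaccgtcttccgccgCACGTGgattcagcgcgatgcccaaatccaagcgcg
BYSL: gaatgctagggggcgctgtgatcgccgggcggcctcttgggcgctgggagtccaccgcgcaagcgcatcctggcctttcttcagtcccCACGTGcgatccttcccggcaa
NAT10: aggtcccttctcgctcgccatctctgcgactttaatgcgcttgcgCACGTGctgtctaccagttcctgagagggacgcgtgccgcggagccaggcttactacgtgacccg
NOP2: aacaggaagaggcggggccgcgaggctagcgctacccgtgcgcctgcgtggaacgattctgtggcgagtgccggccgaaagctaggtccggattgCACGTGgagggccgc
UTP20: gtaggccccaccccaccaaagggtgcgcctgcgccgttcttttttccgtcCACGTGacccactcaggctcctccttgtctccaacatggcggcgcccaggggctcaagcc
PES1: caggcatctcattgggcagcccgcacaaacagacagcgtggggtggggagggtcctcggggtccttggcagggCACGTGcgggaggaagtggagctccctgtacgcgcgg
Counted from 1 at the first base of the gene, the E-box began at positions 15, 29, 36 and 14 in MRTO4, BYSL, NOP2 and PES1, and, counted backwards, at -15 in NAT10 and -10 in UTP20. MRTO4, BYSL, NOP2, UTP20 and PES1 did not pass the test in SK-Hep1, and NAT10 fell there.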

How the data were processed

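Gene expression was measured on Illumina BeadChips in 8 samples. The authors deposited a processed table of log2 intensities for 47319 probes, made with GenomeStudio 2011.1 per the submitters' processing notes, and these values were analysed as they stand. How they were normalized, corrected for background or adjusted between lines is not given in the sources used here. A deposited table of signals from before normalization was left out, because its 16 value columns carry running numbers that match no label.

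The members, roles and other lists were chosen with earlier results of these data known. Probes were named through the platform annotation. Genes were tested where the mean of the brightest probe over 8 arrays exceeded 7.006, the 95th percentile of 610 probes for beta-defensins, keratin-associated proteins and olfactory, vomeronasal and taste receptors. limma 3.58.1 in R 4.3.3 (lmFit, eBayes, two-sided) was fitted with 4 group means, leaving 4 residual degrees of freedom. Benjamini-Hochberg adjustment covered all 12384 genes. Values in every array are given for the members called in SK-Hep1, the 12 largest calls in Huh7 and at most 10 members differing between lines. For other lists, at most 3 called genes per line and MYC are named. Alternatives covered the filter, normalization, choice of probe, fit, array weights, intensity trend and each array left out.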

Additional observations from a re-analysis of the deposited data

Results flagged for a closer look

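The difference of knockdown from control was not the same in the 2 lines for 13 of the 44 tested members (29.5%), all below 0. The test was of the difference itself (SK-Hep1 difference minus Huh7 difference, limma, adjusted over all tested genes). Over all tested genes 31.4% were called in this test, 15.3% above 0 and 16.1% below, so a call is not particular to the members. The lines also differed in control titles, in knockdown titles and in the SMARCB1 intensity left (44.7% in SK-Hep1 and 32.0% in Huh7). These cannot be told apart from the line itself, and the spread between arrays may be technical. Gene by gene, the line means of the deposited values differed with an SD of only 0.0291. How the values were adjusted between the lines is not given, and its bearing on differences within a line was not tested. In log2 units the values were -0.78 for PPAN, -0.62 for NAT10, -0.60 for POLR1C and -0.60 for NOP58. They were -0.48 for RRP12, -0.45 for NOP2, -0.45 for TSR1 and -0.45 for DDX56. The others were -0.40 for DKC1, -0.38 for NCL, -0.38 for RRS1, -0.37 for FBL and -0.37 for RRP9. The adjusted p ran from 0.000396 (PPAN) to 0.0445 (RRS1), and 7 of the 13 passed in every other setting tried. For TSR1 the dimmer probe differed by -0.07 in SK-Hep1 and -0.06 in Huh7.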

How the results depend on the processing

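No paired analysis was possible because the array numbers taken from the titles are not shared between the compared groups. The named values had all been chosen for passing in the main fit. An intensity trend, fitting each line alone and leaving out an array of the other line cannot change a difference within a line. Nor can either other filter on dim probes, since the brightest probe stays the same. The mean of all probes cannot change it for a gene with a single probe above background. Array weights also left the median differences of the members unchanged. In those settings the direction of a difference was fixed in advance, so the counts of kept directions include settings that could not turn a sign. Among named values, 369 kept their direction and side of the threshold, 53 kept their direction but no longer passed, and 0 turned round. In SK-Hep1 the count of members that rose, 1, was 0 with no filter on dim probes, with each line fitted alone and with array weights, and 0 to 1 with an array left out. The count that fell, 4, was 1 with each line alone and 1 with array weights, 5 with background at the 99th percentile, 6 with the mean of all probes and 6 with an intensity trend, and 0 to 3 with an array left out. In Huh7 the count that rose, 18, was 16 to 25 under the settings with all arrays and 10 to 23 with an array left out. The count that fell, 0, was 1 with background at the 99th percentile (DDX10), 3 with the mean of all probes, 2 with each line alone, 6 with array weights and 1 with an intensity trend, and 0 to 1 with an array left out. The count differing between the lines, 13, was 12 to 13, and 7 to 12 with an array left out. The Huh7 median, 0.198, was 0.175 and 0.177 after quantile normalization of the 8 arrays and within each line and 0.166 with the mean of all probes, and 0.167 to 0.214 with an array left out. The SK-Hep1 median was -0.0938 to -0.0439 with an array left out. The share of all tested genes moved between settings too. In Huh7 11.1% of them rose with no filter on dim probes, where the member count was 16. With each line alone 24.8% rose (24 members), and with array weights 25.9% (25 members). In SK-Hep1 4.05% fell with each line alone and 4.52% with array weights, against 9.22% with an intensity trend. With no filter 4.37% fell there, while the member count stayed at 4. The causes were not tested. Where a left-out array leaves 1 array in a group, that array is assumed to vary like the others. Background correction from the signals before normalization was not run, since its columns match no label. If background is part of the deposited values, differences of dim genes are understated.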
